A study of Mus musculus with 26 samples.

Results

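The genes described here are 10 that control the passage of cells from the G1 phase into DNA replication: the D cyclins Ccnd1, Ccnd2 and Ccnd3, their kinases Cdk4 and Cdk6, the inhibitors Cdkn1b (p27), Cdkn1c (p57) and Cdkn2c (p18Ink4c), and the pocket proteins Rb1 and Rbl1 (p107). They were chosen by name and role, with no cut on their measured values although earlier results of these data were known, and make up 10 of the 18193 genes that the arrays measured with at least 1 single-gene probe set. Of the 10, 9 passed the filter on dim genes and were tested. Cdkn1c lay below the array median in all 26 lines and was not tested. Where a gene had several probe sets, the one brightest on average was used.

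Transcripts were measured in 26 mouse skin cell lines, each on 1 Affymetrix M430 array, and all levels below are the deposited log2 RMA values. The keratinocyte lines, immortalised cells of the epidermis, were C5N and NK (n = 2), of which NK came from a mouse with a null allele, and P6 was derived from a papilloma, a benign tumour. Carcinoma lines labelled as free of spindle pathology, here called non-spindle, were B9, B9ras, B9rassmad, E4, PDV, PDVC57, SN161 and the MSC lines MSC7A, MSC11B, MSC12, MSCP1 and MSCP5 (n = 12). The spindle lines, from carcinomas of elongated cells, were A5, CarB, CarC, D3, D3DP, H11 and MSN2 (n = 7). No spindle state was given for 2945CA and MSCb1, and the labels of B9Smad and of 1 further keratinocyte line contradict themselves, so these 4 lines and P6 entered no test. The tumours behind MSCP5, MSC12, MSCP1, MSC11B, MSC7A and MSCb1 arose in mice of a Spretus/CBA cross, and that behind SN161 in a Spretus/NIH cross. All lines grew in serum and were harvested in log phase, with no treatment. Some lines share a name stem, namely B9, B9ras and B9rassmad, PDV and PDVC57, D3 and D3DP, and CarB and CarC, but the labels do not state how they are related, and each counts as 1 line here. A line stands for 1 tumour or culture with 1 array, so every SD and p-value measures the spread between lines and not between cultures of a line.

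D cyclins are made when growth factors act on a cell. They bind CDK4 or CDK6, and the active kinase phosphorylates the pocket proteins, which otherwise hold E2F transcription factors in a repressive complex. Once freed, E2F factors switch on genes of DNA replication, and Rbl1 is itself a known E2F target. The INK4 proteins, Cdkn2c among them, bind CDK4 and CDK6 directly, while p27 and p57 act on several cyclin and CDK complexes. In mouse skin, cyclin D1 is a known effector of Ras signalling in papilloma formation.

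The lines are not equally distant from each other. Across the 12641 tested genes, A5 and H11 correlated at r = 0.988, PDV and MSCP1 at 0.987, D3DP and MSN2 at 0.975 and MSC11B and MSN2 at 0.967, against 0.869 for the median pair of arrays. The mean of 7 epithelial marker genes was 11.45 and 11.98 in the keratinocyte lines and 4.30 to 4.70 in the spindle lines. In the non-spindle lines it ran from 4.40 to 12.09, and MSC12 (4.40), MSC7A (4.48) and MSC11B (4.65) lay at the level of the spindle lines in spite of their label. Of the 7 mesenchymal markers, 5 to 7 were above the array median in each spindle line. The means of melanocyte and endothelial markers stayed at or under 4.99 in all 21 compared lines. The mean of 3 leukocyte markers reached 6.38 in 1 non-spindle line, SN161, and at most 5.19 in the spindle lines.

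**Figure D1:**
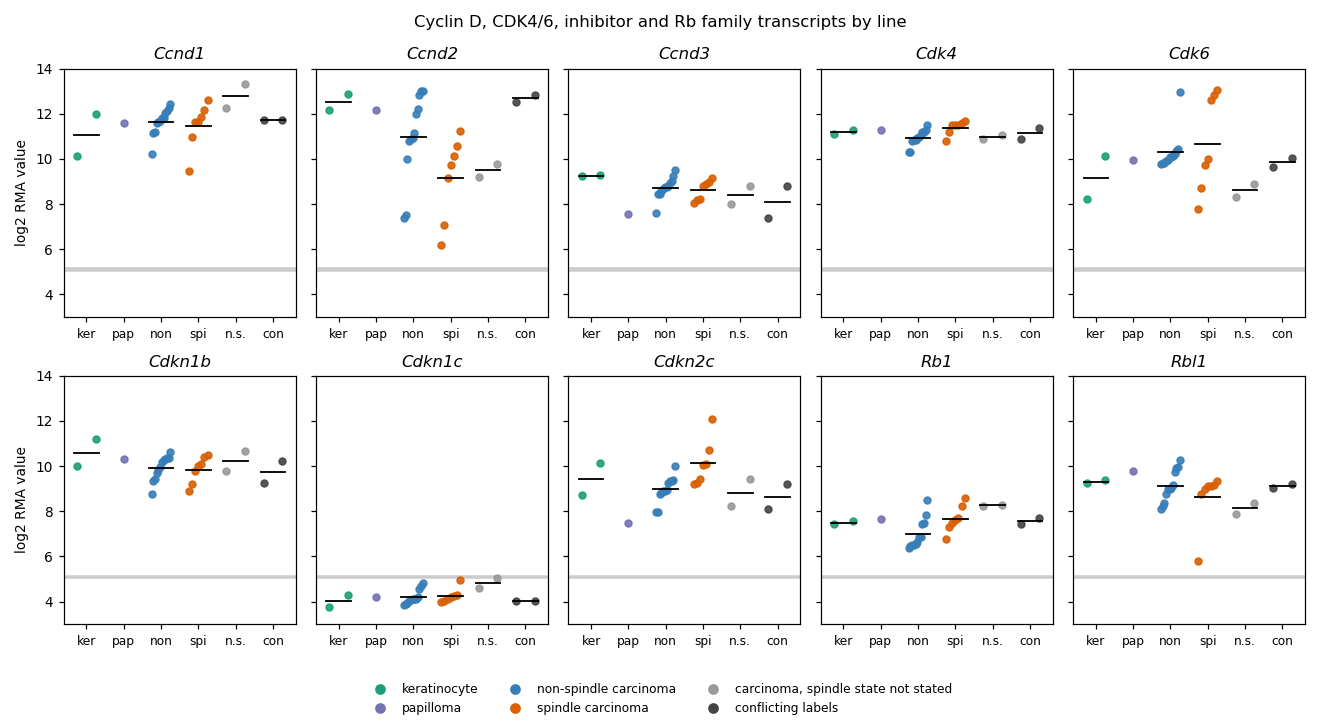
Level of each of the 10 genes in 26 lines, as log2 RMA values. Each point is 1 line, lines within a group are spread out by value, and black bars are group means. The groups are keratinocyte (ker), papilloma (pap), non-spindle carcinoma (non), spindle carcinoma (spi), spindle state not stated (n.s.) and conflicting labels (con), and the grey band is the range of the array medians, 5.04 to 5.15. Cdkn1c lies below the band in every line, Ccnd2 spans 6.20 to 12.99, and 4 carcinoma lines stand apart for Cdk6 at 12.61 or more.

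Among the D cyclins, Ccnd2 varied most over the lines. Cyclin D2 pairs with CDK4 and CDK6 as cyclin D1 does. Its level was 12.89 in C5N and 12.15 in NK, and 12.16 in the papilloma line. In the 12 non-spindle lines it ran from 7.40 in SN161 through a median of 11.04 to 12.99 in PDV, and in the 7 spindle lines from 6.20 in A5 through 9.72 to 11.24 in CarC. Every spindle line lay below both keratinocyte lines, while spindle and non-spindle lines overlapped widely. The spindle lines were lower than the non-spindle lines by 1.82 on the log2 scale (SE 0.83, 95% interval -3.55 to -0.09), which did not pass the test (limma adjusted p = 0.221). This interval counts close arrays as separate lines. A setting added later averaged A5 with H11, PDV with B9ras and MSCP1, and D3DP with MSN2. With these close arrays averaged the difference was -1.16. Against keratinocytes the difference was -3.36 (SE 1.40, limma adjusted p = 0.173).

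The low end of Ccnd2 was made up of 4 lines, A5 at 6.20, H11 at 7.08, SN161 at 7.40 and E4 at 7.54, with 2 labelled spindle and 2 non-spindle. The next line, D3, was at 9.17. The 7 probe sets of Ccnd2 correlated with the one used at r = 0.954 or more over the 26 lines, and each ranked the same 4 lines lowest. A5 and H11 are the closest pair of arrays, so they add little beyond 1 observation.

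Cdkn1b, the gene of p27, was also low in these 4 lines. It measured 8.79 in SN161, 8.92 in A5, 9.19 in H11 and 9.32 in E4, within a range of 8.79 to 11.20 over all lines. Of the remaining lines, the keratinocyte line with conflicting labels, at 9.24, was the one that lay among them. Over the 26 lines Ccnd2 and Cdkn1b correlated at r = 0.579 (Spearman's rho 0.387), and at 0.414 without A5 and H11. This is a description over single arrays of partly related lines.

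**Figure D2:**
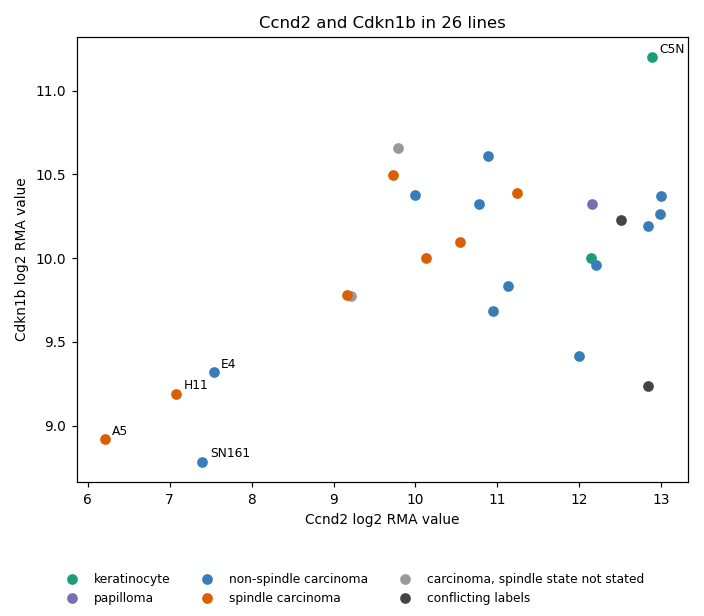
Cdkn1b level against Ccnd2 level, both as log2 RMA values, with 1 point for each of the 26 lines coloured by group. A5, H11, SN161 and E4 sit together in the lower left corner, at 6.20 to 7.54 for Ccnd2 and 8.79 to 9.32 for Cdkn1b, and C5N is highest for Cdkn1b at 11.20.

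Ccnd1, the gene of cyclin D1, was high in nearly all lines. C5N was at 11.99 and NK at 10.14. The non-spindle lines ran from 10.21 (MSCP5) through a median of 11.73 to 12.41 (PDVC57), and the spindle lines from 9.45 (CarC) through 11.65 to 12.61 (D3). The groups overlapped in every comparison. The spindle lines differed from the non-spindle lines by -0.18 (SE 0.37, limma adjusted p = 0.824). The highest value of all, 13.33, belonged to 2945CA, a line in no comparison, and the 3 probe sets of Ccnd1 each put CarC lowest.

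The Spretus comparison set 6 non-spindle lines from a Spretus cross against the 6 with no cross stated. Close arrays sit on both sides of it. MSCP1, a cross line, correlated at r = 0.987 with PDV and 0.978 with B9ras, both with no cross stated. PDV and B9ras correlated at 0.983, so the lines may not be independent observations. Ccnd1 was 11.28 ± 0.59 (SD, n = 6) in the cross lines and 12.03 ± 0.30 (n = 6) in the others. The groups overlapped, and the difference of -0.75 (SE 0.26, 95% interval -1.32 to -0.18) had an unadjusted p of 0.0135 and a limma adjusted p of 0.417. It was the one member under an unadjusted p of 0.05 there, against 10.9% of all tested genes. Cell state markers moved with this comparison: in the cross lines the 7 epithelial markers were lower (median -3.03), the 7 mesenchymal markers higher (median 2.33) and the 6 mitotic genes lower (median -0.50). None of these markers was called, and their part in the difference was not tested.

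Ccnd3, the gene of cyclin D3, moved within a narrower range, from 7.38 in the keratinocyte line with conflicting labels to 9.53 in MSC12. It was 9.27 in C5N and 9.25 in NK, 8.73 ± 0.47 (n = 12) in non-spindle lines and 8.61 ± 0.45 (n = 7) in spindle lines. Every spindle line lay below both keratinocyte lines, yet the difference of -0.65 (SE 0.35) did not pass the test (limma adjusted p = 0.308). A second Ccnd3 probe set, above the array median in all 26 lines but correlated with the first at r = 0.495, gave a difference of -0.12. There A5 and H11, both at 6.715, lay above C5N at 6.568 and NK at 6.698, so the groups overlapped. Of the 9 tested members, Ccnd2 and Ccnd3 were the 2 whose spindle and keratinocyte values did not overlap, while 22.9% of all tested genes have groups that do not overlap in that comparison.

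Cdk4, the kinase gene with the smallest spread among the 9, ran from 10.29 in MSCP1 to 11.67 in H11. The keratinocyte lines were at 11.26 and 11.09, non-spindle lines at 10.94 ± 0.36 (n = 12) and spindle lines at 11.38 ± 0.30 (n = 7). Spindle and non-spindle lines overlapped. Their difference of 0.45 (SE 0.16, 95% interval 0.12 to 0.78) had a limma adjusted p of 0.138. With close arrays averaged it was 0.33. The probe set used is of a kind whose probes can also match other transcripts. The remaining Cdk4 probe sets followed it at r = 0.975 and 0.916 and gave differences of 0.55 and 0.43.

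Cdk6 separated 4 carcinoma lines from all others. It measured 13.04 in D3, 12.95 in MSC11B, 12.83 in MSN2 and 12.61 in D3DP, of which MSC11B is labelled non-spindle and the rest spindle. The next line, PDVC57, was at 10.44, and CarB was lowest at 7.78. The remaining spindle lines were at 9.98 (A5), 9.72 (H11), 8.71 (CarC) and 7.78 (CarB), so the spindle group held both ends of the range. Keratinocyte lines were at 8.21 (C5N) and 10.11 (NK). The non-spindle lines other than MSC11B lay between 9.76 and 10.44. All 3 probe sets of Cdk6 ranked the same 4 lines highest.

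As a group, spindle lines were at 10.67 ± 2.15 (n = 7) and non-spindle lines at 10.29 ± 0.86 (n = 12), a difference of 0.38 (SE 0.65, limma adjusted p = 0.779). Single lines decided its size and sign: the difference was -0.02 without D3, 0.02 without MSN2, 0.05 without D3DP, 0.62 without MSC11B, 0.70 without CarC and 0.86 without CarB.

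The high Cdk6 values did not stand alone on the chromosome. In the RefSeq gene order of mouse chromosome 5, no tested gene precedes Cdk6, and the next 10 tested genes all had D3, D3DP, MSN2 and MSC11B as their 4 highest lines. These genes are named here because of their position, after their values were seen. In order they are Fam133b, 1700109H08Rik, Rbm48, Gatad1, Ankib1, Krit1, Mterf1a, Akap9, Cyp51 and Fzd1. Their Pearson correlation with Cdk6 over the 26 lines was 0.692 for Fzd1 and 0.816 to 0.921 for the other 9. By rank it was lower, with rho from 0.24 for Fzd1 to 0.703 for Rbm48. From the 11th gene, Cdk14 (r = 0.301), to the 30th, none had the same 4 lines highest.

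Levels of single neighbours show the size of the step. Mterf1a, a gene for a mitochondrial transcription termination factor, was at 11.80 in D3, 11.48 in D3DP, 12.16 in MSC11B and 11.45 in MSN2, and at most 7.79 in the other 22 lines. Krit1, a gene known from cerebral cavernous malformation, was at 11.43 to 12.27 in the 4 lines and at most 8.57 in the rest. Akap9, an anchor of protein kinase A, was at 12.30 to 12.65 against at most 9.99. The 4 lines and the other 22 did not overlap for any of the 10 genes. For Cyp51, an enzyme of cholesterol synthesis, the step was smaller, with a lowest value of 12.99 in the 4 lines and a highest of 12.52 elsewhere.

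The same 4 lines were highest for 90 of the 12641 tested genes, or 0.712%. A gap of at least 2 log2 units between the lowest of the 4 and the highest of the other 22 lines was found for 9 genes. These were Cdk6 and the next 8 genes after it, with gaps from 2.12 for Fam133b to 3.66 for Mterf1a and 2.17 for Cdk6. Outside chromosome 5, the largest gaps were those of Hoxa11 (1.59) and its antisense partner Hoxa11os (1.13), whose signals may not be separate.

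For each of 12412 tested genes, the next 10 tested genes with a Pearson's r above 0.7 were counted. Cdk6 and its neighbour Fam133b were the 2 with 9 or more of those, and 82.6% had none. For the other 8 tested members, with up to 10 tested genes counted on each side, at most 1 neighbour passed 0.7. Ccnd1 had 0 of 13, with a highest r of 0.583 for Fadd. Arrays of D3, D3DP, MSN2 and MSC11B are also close as a whole, with D3DP and MSC11B at r = 0.961 and D3 and D3DP at 0.957, so the 4 may not be independent observations. DNA copy number was not analysed here.

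**Figure D3:**
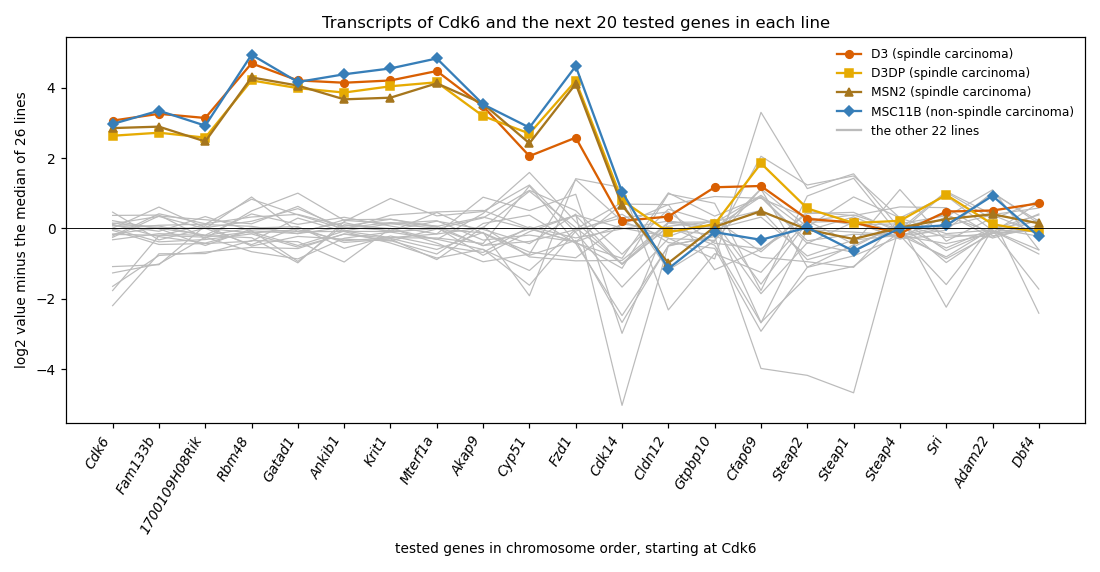
Level of Cdk6 and of the next 20 tested genes in chromosome order, as log2 value minus the median of the 26 lines, with 1 line of the plot per cell line. D3, D3DP, MSN2 and MSC11B lie above the other 22 lines from Cdk6 to Fzd1 and fall among them from Cdk14 on.

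Among the inhibitors, Cdkn1b showed no clear relation to stage. C5N was at 11.20 and NK at 9.999. Non-spindle lines ran from 8.79 through 10.08 to 10.61 and spindle lines from 8.92 through 10.003 to 10.49. The ranges overlapped almost fully, and the difference between the carcinoma groups was -0.09 (SE 0.27, 95% interval -0.65 to 0.47, limma adjusted p = 0.879). Cdkn1c, an imprinted gene, was at 3.74 to 5.05 in the 26 lines, below the median of its array each time. Whether its transcript lay above background was not tested.

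Cdkn2c, an INK4 inhibitor of CDK4 and CDK6, had the lowest p-value of the 9 members between the carcinoma groups and did not pass the test. It had only 1 probe set, so no other could serve as a check. C5N was at 10.15 and NK at 8.70, and P6 was the lowest line of all at 7.47. Non-spindle lines ran from 7.95 (MSCP5) through a median of 8.92 to 9.998 (MSC11B). Spindle lines ran from 9.20 (D3) through 10.06 to 12.08 (CarC). The groups overlapped, and the spindle mean of 10.12 ± 1.02 (n = 7) exceeded the non-spindle mean of 8.96 ± 0.58 (n = 12) by 1.15 (SE 0.36, 95% interval 0.41 to 1.90), with an unadjusted p of 0.00424 and a limma adjusted p of 0.112. Without CarC the difference was 0.83. Leaving out any 1 line gave adjusted p-values from 0.0539 to 0.202.

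Cdkn2c and its INK4 relatives were not alike in CarC and CarB, the 2 lines highest for Cdkn2c at 12.08 and 10.71. Cdkn2a, which encodes Ink4a and Arf, was at 4.37 in CarC and 3.98 in CarB, and Cdkn2b, which encodes Ink4b, was at 4.81 and 4.40. These 4 values lie below every array median. Cdkn2d, which encodes p19Ink4d, was highest of all lines in CarB at 9.93 and stood at 7.82 in CarC.

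Rb1, the retinoblastoma gene, was measured at 7.43 in C5N and 7.55 in NK. Non-spindle lines ran from 6.38 (MSC12) through 6.76 to 8.52 (MSC7A) and spindle lines from 6.76 (CarC) through 7.61 to 8.58 (CarB). The ranges overlapped, and the spindle mean was higher by 0.66 (SE 0.29, 95% interval 0.06 to 1.26, limma adjusted p = 0.204). A second Rb1 probe set was below the array median in all lines and was no check.

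When MSC12, MSC11B and MSC7A were left out, Cdkn2c and Rb1 passed the test. The difference between spindle and the 9 remaining non-spindle lines was then 1.30 for Cdkn2c (limma adjusted p = 0.0318) and 0.81 for Rb1 (limma adjusted p = 0.0382). These 3 lines were picked after their low epithelial markers had been seen, and without them 1954 genes (15.5%) were called in place of 8, so 2 of 9 members is near the share over all genes. Over the 26 lines, Cdkn2c correlated with the epithelial marker mean at r = -0.493, Rb1 at -0.413 and Cdk4 at -0.443, and Ccnd2 at 0.539 and Rbl1 at 0.519.

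Rbl1, the gene of p107, had 1 line far from all others. CarC was at 5.79. The other spindle lines lay between 8.74 and 9.35, the non-spindle lines between 8.10 (SN161) and 10.28 (MSCP1) with a median of 9.02, and C5N and NK at 9.40 and 9.23. The lowest lines after CarC were 2945CA at 7.88 and SN161 at 8.10. The other Rbl1 probe set that lay above the array median in most lines was also lowest in CarC, at 4.85. Between the carcinoma groups the difference was -0.52 (SE 0.42, limma adjusted p = 0.495), and without CarC it was -0.05.

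The promoter of Rbl1 is shown because it was the one member promoter in the RefSeq table with a match to an E2F-type motif. The motifs searched were TTTCGCGC, TTTGGCGC, TTTCCCGC and TTTGCCGC, on both strands, in windows of 300 bases around annotated gene starts. The table held 8 such windows for 6 of the 10 members (Ccnd3, Cdk4, Cdk6, Cdkn1b, Cdkn2c and Rbl1), and a match was present in 744 of 32851 windows in the table, or 2.26%. The 150 bases before the Rbl1 start, at chr2:157204535-157204684 of GRCm38.p6 on the minus strand, hold the match in capitals, with its first base at position -18 from the start.
Rbl1 promoter: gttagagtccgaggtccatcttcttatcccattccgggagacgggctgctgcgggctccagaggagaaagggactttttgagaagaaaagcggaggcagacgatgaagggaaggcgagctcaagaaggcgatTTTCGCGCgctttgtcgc
A match describes letters and not binding, which was not analysed here.

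CarC was low for the E2F-linked replication genes as well as for Rbl1. It was the lowest of 26 lines for 13 of the 15 measured replication genes, among them the helicase subunit genes Mcm3 (5.92, others 8.67 or more) and Mcm5 (7.04, others 9.26 or more), the loading factor Cdc6 (4.45, others 6.30 or more) and Tk1, thymidine kinase (6.18, others 8.71 or more). The mean of the 15 was 7.11 in CarC, and the next lines were 2945CA at 8.82, SN161 at 8.92 and MSCb1 at 9.004. CarC was lowest for 7.95% of all tested genes and highest for 8.05%. The line was singled out after its values were seen, and no test is attached to it.

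Some other cell cycle genes were also lowest in CarC. E2f7 (4.19, others 6.68 or more) and E2f8 (5.42, others 7.20 or more), both repressors that E2F induces, and Tfdp1, the DP partner of E2F factors, were 3 of 10 E2F factor genes lowest there. Of 8 genes of the cyclin E, cyclin A and CDK2 stage, 4 were lowest there, with Ccne2 at 4.47 (others 6.69 or more) and Ccna2 at 7.80 (others 9.31 or more). The mean of 6 mitotic genes was 8.07 in CarC, against 9.24 in MSCb1 as the next line and 10.14 to 11.10 in the non-spindle lines. Ccnd1 was lowest and Cdkn2c highest in the same line, as given above. Growth of the lines was not analysed here, and fewer dividing cells and less transcript per cell cannot be told apart.

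By Pearson's r, Rbl1 had the highest correlation of the 10 members with the proliferation genes. It correlated with the mean of the 6 mitotic genes at r = 0.838 (rho 0.646), and at 0.635 without CarC. With the mean of the 15 replication genes the r was 0.776, and 0.485 without CarC. By rank it did not lead there, with rho 0.406 beside 0.411 for Ccnd3, and without CarC 0.332 beside 0.352. For Ccnd1 the r with the replication genes was 0.368 with CarC and -0.11 without it, and for Cdkn2c -0.252 and 0.413. The sign of both r values rested on that 1 line. By rank neither sign changed, with rho 0.184 and 0.082 for Ccnd1 and 0.136 and 0.278 for Cdkn2c. These values describe 26 single arrays, some of related lines.

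**Figure D4:**
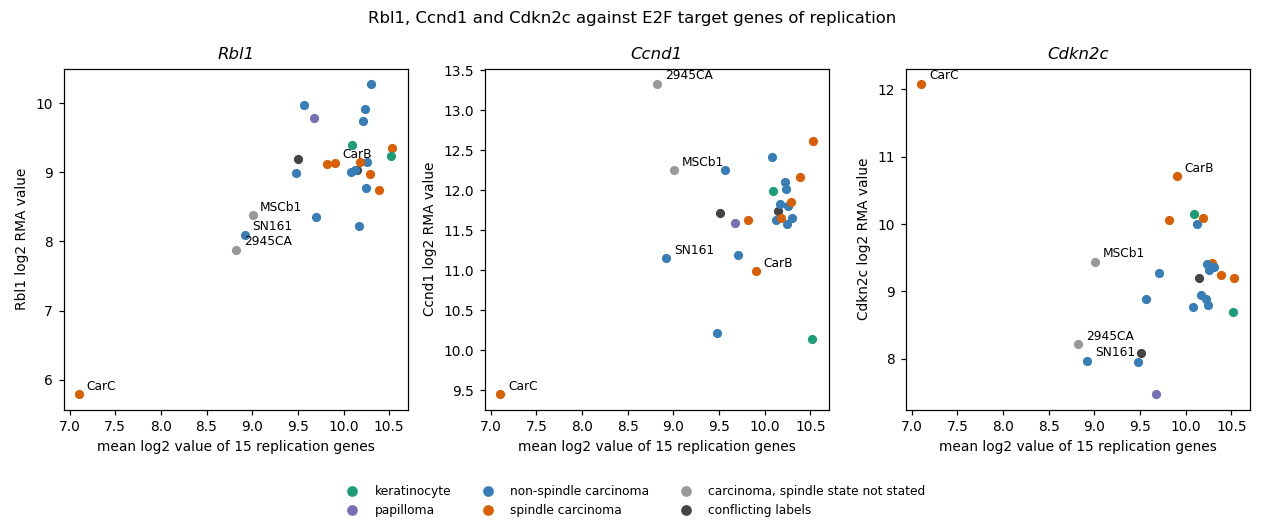
Level of Rbl1, Ccnd1 and Cdkn2c (log2 RMA values) against the mean log2 value of 15 E2F target genes of replication, with 1 point per line coloured by group. CarC is at 7.11 on the horizontal axis, apart from all others, with the lowest Rbl1 (5.79) and Ccnd1 (9.45) and the highest Cdkn2c (12.08), and 2945CA, SN161 and MSCb1 follow at 8.82 to 9.004.

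The test between spindle and non-spindle lines called 0 of the 9 tested members, against 8 of 12641 genes (0.0633%) at a limma adjusted p under 0.05. At an unadjusted p under 0.05 there were 4 members, Cdkn2c, Cdk4, Rb1 and Ccnd2, against 20.7% of all tested genes. The groups of lines overlapped for all 9 members, as for all but 0.0554% of genes. The count of called genes depended on single lines, with 471 without MSC11B, 183 without MSC7A and 179 without MSC12, and 0 members were called in each of these. Over the 9 members the median difference was -0.09, beside 0.04 over all tested genes.

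Non-spindle lines against keratinocytes gave 0 called members as well, where 255 genes (2.02%) were called, or 147 without C5N. The member differences ran from -1.54 (Ccnd2, SE 1.33) to 1.13 (Cdk6, SE 1.05), with limma adjusted p-values of 0.61 or more. C5N and NK differ for several members, and the Cdk6 difference was 0.18 without C5N and 2.08 without NK, while that of Cdkn1b was -0.07 and -1.27. No member had an unadjusted p under 0.05, against 12% of genes. Groups did not overlap for 5.66% of genes and for 0 of the 9 members. Cdkn1b at -0.67 (SE 0.43), Ccnd3 at -0.53 (SE 0.34), Rb1 at -0.49 (SE 0.46), Cdkn2c at -0.46 (SE 0.57), Cdk4 at -0.24 (SE 0.25) and Rbl1 at -0.19 (SE 0.67) leaned lower, and Ccnd1 at 0.59 (SE 0.59) leaned higher. With 2 keratinocyte lines these intervals are wide, reaching from -4.32 to 1.23 for Ccnd2.

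Spindle lines against keratinocytes also called 0 of 9 members, where 676 genes (5.35%) were called, or 258 without C5N and 284 without NK. Ccnd2 alone had an unadjusted p under 0.05 (p = 0.026), against 20.7% of genes. Differences of the remaining members ran from -0.76 (Cdkn1b, SE 0.45) to 1.51 (Cdk6, SE 1.10). The first was -0.16 without C5N and -1.36 without NK, and the second 0.56 and 2.46. The Rbl1 difference of -0.71 was -0.24 without CarC, and the Rb1 difference of 0.17 was 0.02 without CarB. Both comparisons with keratinocytes share the control lines C5N and NK, so their values are not independent of each other.

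In the Spretus comparison limma called 0 members and 0 of 12641 genes (0%), with 1383 genes at an unadjusted p under 0.05. The groups did not overlap for 0.372% of genes and for 0 of 9 members. Without MSCP1 163 genes were called, and 0 members. After Ccnd1 the largest differences were those of Rbl1 at -0.60 (SE 0.37), Ccnd2 at -0.51 (SE 1.04) and Cdkn1b at -0.43 (SE 0.28). Cdk6 was at 10.46 ± 1.22 (n = 6) in the cross lines and 10.12 ± 0.27 (n = 6) in the others, a spread that comes from MSC11B at 12.95.

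**Figure D5:**
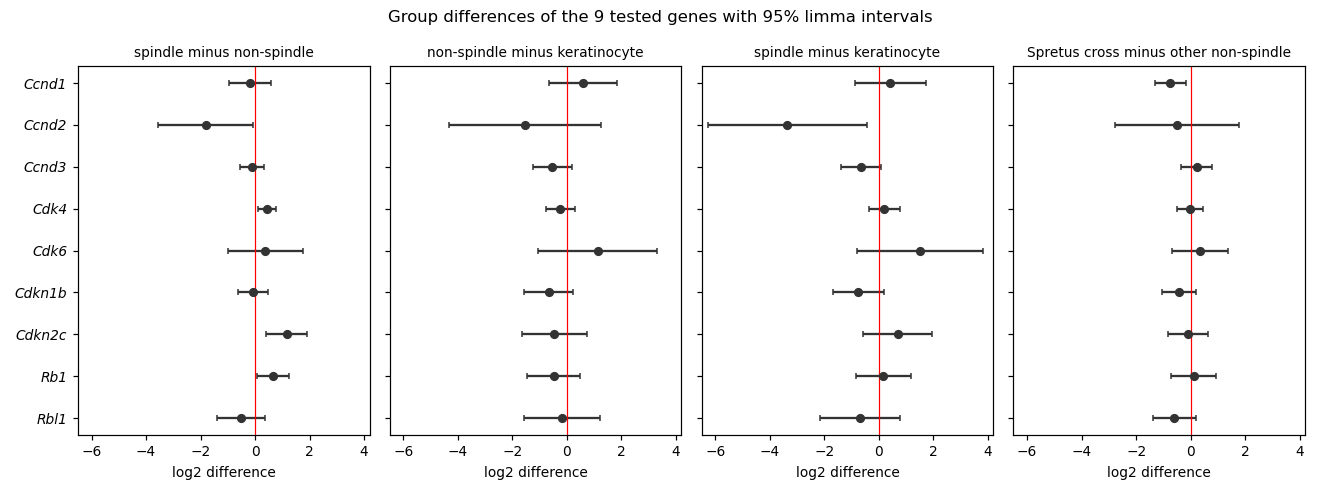
Difference in log2 level of the 9 tested members in the 4 comparisons, with points as limma estimates and bars as 95% intervals; the vertical line marks 0. Intervals of Cdkn2c, Cdk4, Rb1 and Ccnd2 leave out 0 between spindle and non-spindle lines before adjustment, and no member passed the test after adjustment over 12641 genes in any comparison. All intervals count close arrays as separate lines.

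The rest of the pathway was followed through 7 lists of genes around the members, chosen with earlier results of these data known. Between spindle and non-spindle lines 0 genes of any list were called. Of the 15 replication genes, 13 were lower in spindle lines, with a median of -0.16 beside 0.04 over all genes. CarC set this direction: without it 12 of the 15 were higher in spindle lines, with a median of 0.21. Without CarC the list medians also moved to 0.22 for E2F factors, 0.21 for pocket protein and MuvB genes, 0.37 for the further inhibitors and 0.35 for the cyclin E, cyclin A and CDK2 stage, beside 0.05 over all genes, and 0 list genes were called. With CarC included, the largest differences among the replication genes were Mybl2 at -0.77 (SE 0.48) and Mcm3 at -0.52 (SE 0.47). CarC was the lowest of the 26 lines for both.

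In the cyclin E, cyclin A and CDK2 list, with 8 tested genes and a median of 0.05, Ccne1 differed by -0.89 (SE 0.26, limma adjusted p = 0.103) and Cdc25a, a phosphatase that activates CDK2, by -0.56 (SE 0.26). Among 4 further inhibitors with a median of -0.20, Cdkn2d differed by 0.75 (SE 0.24, limma adjusted p = 0.117) and Cdkn1a (p21) by -0.52 (SE 0.68). The 10 E2F factor genes had a median of 0.03, with E2f6 at 0.66 (SE 0.26) and E2f7 at -0.44 (SE 0.48). The 8 pocket protein and MuvB genes had a median of 0.02, and the members Rb1 and Rbl1 had the 2 differences of largest size.

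Genes for the turnover of cyclin D, p27 and cyclin E had a median of 0.0085. The F-box genes Fbxo31 and Fbxo4, both linked to cyclin D1 degradation, differed by 0.84 (SE 0.32, limma adjusted p = 0.163) and 0.61 (SE 0.21, limma adjusted p = 0.131). Ambra1, another gene of cyclin D degradation, had the lowest adjusted p of the list and the opposite sign, at -0.44 (SE 0.11, limma adjusted p = 0.0857), and is named after its values were seen. Among 6 regulators that respond to mitogens, with a median of -0.05, Ets2 differed by -0.61 (SE 0.29) and Fosl1 by 0.54 (SE 0.31).

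Against keratinocytes, 2 of the 57 tested list genes that are not members were called in non-spindle lines (3.51%, beside 2.02% of all genes) and 3 in spindle lines (5.26%, beside 5.35%), which is near the share over all genes. Fosl1, the gene of the AP-1 subunit Fra-1, was at 6.11 and 7.48 in the keratinocyte lines, 9.03 to 11.02 in the non-spindle lines and 9.70 to 11.56 in the spindle lines, with no overlap. It rose by 3.21 (SE 0.50, limma adjusted p = 0.00151) in non-spindle and by 3.76 (SE 0.52, limma adjusted p = 0.000429) in spindle lines. Under alternative settings the second call held in 19 of 19 and the first in 23 of 24, the exception being the fit without C5N (2.53, limma adjusted p = 0.0748). AP-1 is a known activator of Ccnd1, whose own differences in these comparisons were 0.59 (SE 0.59) and 0.41 (SE 0.62).

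E2f2, an activating E2F gene, was at 7.06 and 8.04 in the keratinocyte lines, 6.02 to 6.81 in non-spindle and 5.94 to 7.02 in spindle lines, with no overlap. It fell by 1.14 on the log2 scale (SE 0.26, limma adjusted p = 0.0213) in non-spindle lines and by 0.98 (SE 0.27, limma adjusted p = 0.0407) in spindle lines. Both calls rested on NK, the higher keratinocyte line: without it the differences were -0.65 (limma adjusted p = 0.643) and -0.49 (limma adjusted p = 0.628). With the conflicting lines placed by cell type label they were -0.51 and -0.40, and the spindle call was lost in 11 of 19 alternatives, those without D3DP, MSN2, H11, CarC or CarB among them.

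Fbxw7, the receptor of a ubiquitin ligase for cyclin E, was at 8.41 and 8.95 in keratinocytes and 7.32 to 8.20 in spindle lines, where it fell by 0.92 (SE 0.27, limma adjusted p = 0.0497). This call, next to the threshold, was lost in 13 of 19 alternatives, with adjusted p-values from 0.04 to 0.499, and without any 1 of D3, D3DP, MSN2, H11, CarC, CarB, C5N or NK. In non-spindle lines it was at 7.45 to 8.74, overlapping the keratinocytes, with a difference of -0.82 (SE 0.26, limma adjusted p = 0.121). In the main fit, the other 9 genes of the E2F factor list were not called in either comparison. Without CarC, 1 E2F factor gene and 1 of the 4 further inhibitors were called in spindle lines against keratinocytes. That E2F gene was not E2f2 (limma adjusted p = 0.0542), and 560 of all tested genes (4.43%) were called there.

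For the 4 members with the largest SD over the lines, the tested genes with the most similar profile were taken by Pearson's r over the 26 lines, as a description. For Ccnd2 (SD 1.98) they were Calhm2 (r = 0.887), Cyp2j6 (0.816) and Pltp (0.794), with rho of 0.825 or more for each. For Cdk6 (SD 1.37) they were its chromosome neighbours Fam133b (0.921), Rbm48 (0.899) and Ankib1 (0.895), with rho of 0.653, 0.703 and 0.61. Cdkn2c (SD 0.96) was followed by Tacc1 (0.774), Sat2 (0.771) and Trim30a (0.743), which dropped to 0.704, 0.659 and 0.608 without CarC. Rbl1 (SD 0.87) was followed by Ncapg2, a condensin subunit (0.888), Pcnt, a centrosome protein (0.870), and Kif20b, a mitotic kinesin (0.859), and without CarC these were 0.779, 0.828 and 0.697.

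Between the members themselves few profiles ran together. The highest r of all member pairs, 0.587 for Cdkn1c and Rb1, involves a transcript below the array median in all lines and is not read further. Of the other pairs not yet named, Cdkn1b and Cdkn2c correlated at r = 0.449 (rho 0.556), and at 0.339 without SN161 and C5N. Ccnd2 and Cdk4 were at -0.426 (rho -0.463), and at -0.263 without A5 and H11. Cdkn2c and Rbl1 were at -0.379 over all lines but at 0.283 without CarC and P6. Rb1 and Rbl1 did not run together, at r = -0.07 (rho -0.154).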

How the data were processed

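The deposited table holds 1 array for each of 26 lines as log2 values that the authors made with RMA, per the submitters' processing notes. The RMA software version is not given in the sources used here. RMA includes quantile normalisation, which hides any shift shared by all transcripts, and it compresses low values. Of 45037 probe sets, 34945 had a single gene symbol in the platform annotation table, 932 had several and 9160 were unnamed here. For each of 18193 genes the probe set brightest on average was kept. Genes above the array median on 2 or more arrays (12641) were tested in R 4.3.3 by lmFit and eBayes of limma 3.58.1 and called at a Benjamini-Hochberg adjusted p under 0.05. One fit held the keratinocyte, non-spindle and spindle lines (21 lines). A second fit, for the Spretus comparison, used only the 12 non-spindle lines. The fit was also tested on simulated data. Those values were drawn independently for each line, unlike the close arrays here, so that test does not cover relatedness. The number of arrays limits the precision.

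Gene order and promoters came from RefSeq (GRCm38.p6), in which all 10 members were matched. Coordinates are left out except for the printed Rbl1 promoter, since the build behind the arrays is unnamed. The members, taken by name, and the lists were chosen with earlier results of these data known. Named were all members, called list genes, the 2 uncalled genes with the largest spindle against non-spindle difference per list, and 3 similar genes for each of the 4 most variable members. Chromosome neighbours of Cdk6 and genes of CarC were named after their values were seen. Of the 16 listed replication genes, 15 were tested. Alternatives changed the dim-gene filter, the probe set rule, the placing of lines with conflicting labels, relatedness, variance trend, groups in the fit, scaling and each line in turn.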

Additional observations from a re-analysis of the deposited data

Results flagged for a closer look

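In the spindle lines (n = 7), Rbl1 was at 5.79 in CarC and at 8.74 in the nearest other line, and this gap takes up 0.828 of the range of the group. In the 6 non-spindle lines from a Spretus cross, Cdk6 was at 12.95 in MSC11B and at 10.09 in the nearest other line, a gap of 0.897 of the range. Both gaps exceed the 95% critical value of Dixon's test for their group size. The test was made on 27 sets of values, each 1 member in 1 group of lines, and picked out 2. Chance alone picks out about 1 in 20 such sets, and the sets share lines, so they are not independent. Ccnd1 was at 13.33 in 2945CA, a line that enters no comparison because its spindle state is not stated, and this lies above the highest compared line, D3 at 12.61. The causes of these values were not tested.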

How the results depend on the processing

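No paired analysis was possible because the labels give no replicate numbers and each line is its own sample. Of 828 values of the 36 member differences under alternatives, 802 kept sign and side of the threshold, 24 changed sign and 2 crossed the threshold. The 2 were Cdkn2c (1.30) and Rb1 (0.81) between spindle and non-spindle lines without MSC12, MSC11B and MSC7A, which gave 2 called members there beside 15.5% of all genes, an alternative added after seeing the data. Under every other alternative run, 0 members were called in each comparison.

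For Cdkn1b, spindle against non-spindle was 0.0487 with the mean of all probe sets and 0.0941 with close arrays averaged (also added later). With conflicting lines placed by their cell type label, Ccnd3 against keratinocytes was 0.10 in non-spindle and 0.0049 in spindle lines. Without MSC12, MSC11B and MSC7A, Rbl1 in non-spindle against keratinocyte lines was 0.0115, and in the Spretus comparison Cdk6 was -0.0829 and Rb1 -0.28. Cdk4 was 0.0433 there with close arrays averaged. Leaving out 1 line at a time, spindle against non-spindle ranged from -0.0169 to 0.86 for Cdk6, -0.20 to 0.0633 for Cdkn1b and -0.36 to 0.16 for Ccnd1. Non-spindle against keratinocyte ranged from -1.19 to 0.27 for Cdkn2c and -0.34 to 1.52 for Ccnd1, and spindle against keratinocyte from -0.52 to 1.34 for Ccnd1 and -0.0337 to 1.42 for Cdkn2c. In the Spretus comparison the ranges were -1.25 to 0.15 for Ccnd2, -0.32 to 0.0947 for Cdkn2c, -0.15 to 0.11 for Cdk4, -0.16 to 0.47 for Cdk6 and -0.18 to 0.28 for Rb1. The cause was not tested.

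The count of all called genes moved more than that of the members. Between spindle and non-spindle lines it was 8, and 3 without the filter, 5 with mean probe sets, 98 with B9Smad placed by its flag, 2 with name families as a random block, and 0 with conflicting lines placed by label or close arrays averaged. Without MSC11B it was 471, without MSC7A 183 and without MSC12 179. Against keratinocytes, non-spindle lines gave 255, and 150 with close arrays averaged, 163 by label, 111 in a fit of 2 groups and 147 without C5N. Spindle lines gave 676, and 323 with close arrays averaged, 1213 in a fit of 2 groups, 258 without C5N and 284 without NK. Among called pathway genes, no sign changed, and calls were lost in 5 of 24 alternatives for E2f2 in non-spindle lines, 11 of 19 in spindle lines, 13 of 19 for Fbxw7, and 1 of 24 and 0 of 19 for Fosl1. Placing by label and the fit of 2 groups do not apply to the Spretus comparison.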
